A study of Mus musculus with 17 samples.

Results

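The 10 genes described here encode glucose transporters and enzymes of glycolysis, and were taken by symbol from deposited expression tables of mouse primordial germ cells. They are the transporter genes Slc2a1 and Slc2a3, the hexokinase genes Hk1 and Hk2, the phosphofructokinase genes Pfkl and Pfkp, Aldoa, Pgk1, Ldha and Pdk1. All 10 were found among the 23361 genes of the E11.5 table and among the 23361 genes of the E13.5 table (E, embryonic day). Primordial germ cells give rise to oocytes and sperm; they had been purified and either irradiated or left without ionizing radiation, in 17 libraries. The question was what happened to glucose uptake and glycolysis genes after irradiation, at each embryonic day and in each sex.

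At E11.5 there were 3 libraries without irradiation (E115-noIR) and 2 irradiated ones (E115-IR), with no sex given. At E13.5 there were 3 irradiated female libraries (FIR), 3 female libraries without irradiation (FC), and male sets of 3 libraries each, with the codes MIR and MC. For males, the code and the wording of the label point opposite ways: the title and the condition entry give MIR as non-irradiated and MC as irradiated, whereas the female codes FIR and FC match their titles. The codes name the male sets here, and each male difference is MIR minus MC. The cell type entry of FIR replicate 1 reads E11.5, whereas its title reads E13.5. The sources used here do not give genotype, strain, dose, the time between irradiation and collection, or how the cells were purified. Whether replicates are separate animals is not stated in the labels, and the p-values cover the spread among these libraries alone, which may be technical.

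Glucose enters cells through facilitative transporters and is split by glycolysis into pyruvate, which becomes lactate or enters mitochondria as acetyl-CoA. Many genes of this route are targets of hypoxia-inducible factor (HIF), which binds DNA at a short core motif. In the mouse embryo, primordial germ cells are known to shift between glycolytic and oxidative metabolism as they develop, and some of these genes are also transcribed in the somatic cells around them.

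Expression was measured as FPKM, a fragment count scaled by transcript length and by library size. Tests compared log2(FPKM + 1), so differences are on that scale and understate changes of low genes; a gene was called at an adjusted p under 0.05. Depth was not given, and the spacing of low FPKM values put it at 10.9 to 18.9 M fragments a library at E11.5 and 13.1 to 25.2 M at E13.5. From those estimates, the thinnest value here, Hk2 in FC replicate 3, rested on about 168 fragments, and the best covered, Aldoa in E115-noIR replicate 2, on about 13353. At the estimated spacing, 25.8% to 94.4% of the low values checked came out within 0.1 of a whole fragment. The lowest share, 25.8% of 31 genes, was in E115-noIR replicate 3, so its depth of 10.9 M is poorly determined. Each depth was the best of a range of trial values, from 11 to 178 genes a library. All these depths and fragment counts are therefore approximate. The 10 genes held 0.0832% to 0.132% of summed FPKM at E11.5 and 0.0698% to 0.114% at E13.5.

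Germ cell identity and irradiation were checked against marker genes. All 10 germ cell markers, Ddx4, Dazl and Pou5f1 among them, were at an FPKM of 1 or more in every library. Ccng1, a p53 target, was at 46.2 to 50.9 FPKM in FC and 197 to 239 in FIR. It was at 35.3 to 40.8 in MC and 218 to 284 in MIR. The p53 targets Cdkn1a, Mdm2 and Phlda3 were also higher in FIR than FC and in MIR than MC, without overlap. At E11.5 the differences were smaller. Ccng1 was at 20.8 to 29.6 FPKM in E115-noIR and 30.3 to 33.3 in E115-IR. Phlda3 was at 9.64 to 10.7 and 15.9 to 17.8, while Cdkn1a and Mdm2 overlapped between the E11.5 groups. Female libraries held Y-linked Ddx3y, Kdm5d, Eif2s3y and Uty at 0 to 0.111 FPKM. Eif2s3y was at 67.1 to 90.5 FPKM in E115-noIR and 51.0 to 92.8 in E115-IR, so every E11.5 library held Y-linked RNA. Xist, a further check of sex, was at no more than 2.35 FPKM in FC and at 13.8 to 83.4 in FIR. It was at no more than 0.281 FPKM in MC or MIR. The part of somatic cells in the Xist difference between FIR and FC was not tested. Markers of gonadal somatic cells also differed between the E13.5 groups. The 6 pregranulosa markers summed to 5.66 to 6.49 FPKM in FC and 92.3 to 226 in FIR, with none of the 6 at 0, and the 6 Sertoli markers to 50.3 to 91.0 in MC and 965 to 3271 in MIR, again with none at 0. Summed germ cell markers were at 3134 to 3284 FPKM in FC, 1575 to 2399 in FIR, 3890 to 4235 in MC and 1358 to 2562 in MIR. Of the other lists, 7 of 7 macrophage markers rose in females and 7 were higher in MIR, 2 and 5 of 6 mesenchyme markers rose or were higher, 2 erythroid markers of 5 tested fell in females and 1 was higher in MIR, and 1 endothelial marker of 2 tested was lower in each. Over all genes tested, 21.8% were higher and 22.9% lower in females, and 28.7% and 31.1% in MIR. Some of the somatic markers reached 1 FPKM, the level needed for a test, in enough libraries only through FIR or MIR. The marker counts are therefore a description. In such bulk libraries, fewer cells of a type and less RNA per cell cannot be told apart.

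Promoter windows are shown for 4 genes that span the outcomes described next: Ldha and Pfkl, higher in FIR and in MIR, Pdk1, lower in MIR, and Pgk1, for which no comparison made a call. Each runs from 250 bases before to 50 bases after the transcription start, from RefSeq on GRCm38.p6. Capitals mark the HIF core letters ACGTG or GCGTG, read on either strand, so that CACGT and CACGC mark matches on the other strand; the palindrome CACGTG counts once on each strand. The windows are Ldha at chr7:46845554-46845853 on the plus strand, Pfkl at chr10:78009758-78010057 on the minus strand, Pdk1 at chr2:71872974-71873273 on the plus strand and Pgk1 at chrX:106186850-106187149 on the plus strand.
Ldha: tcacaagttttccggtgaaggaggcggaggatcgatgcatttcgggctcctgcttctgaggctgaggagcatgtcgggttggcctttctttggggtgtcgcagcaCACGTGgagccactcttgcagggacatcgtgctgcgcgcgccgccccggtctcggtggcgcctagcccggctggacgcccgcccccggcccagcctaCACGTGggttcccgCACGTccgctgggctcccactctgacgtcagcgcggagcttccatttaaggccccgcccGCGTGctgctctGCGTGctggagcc
Pfkl: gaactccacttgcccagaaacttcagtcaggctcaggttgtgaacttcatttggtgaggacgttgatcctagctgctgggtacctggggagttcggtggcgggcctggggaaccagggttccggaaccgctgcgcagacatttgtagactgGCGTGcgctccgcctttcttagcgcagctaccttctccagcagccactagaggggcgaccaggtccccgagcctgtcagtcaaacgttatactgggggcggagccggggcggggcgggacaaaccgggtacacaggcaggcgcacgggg
Pdk1: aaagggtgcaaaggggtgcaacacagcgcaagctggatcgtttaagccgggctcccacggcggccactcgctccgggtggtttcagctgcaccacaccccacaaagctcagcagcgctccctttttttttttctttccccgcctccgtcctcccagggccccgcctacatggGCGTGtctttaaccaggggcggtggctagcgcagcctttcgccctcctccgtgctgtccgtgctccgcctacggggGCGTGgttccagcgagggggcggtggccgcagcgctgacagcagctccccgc
Pgk1: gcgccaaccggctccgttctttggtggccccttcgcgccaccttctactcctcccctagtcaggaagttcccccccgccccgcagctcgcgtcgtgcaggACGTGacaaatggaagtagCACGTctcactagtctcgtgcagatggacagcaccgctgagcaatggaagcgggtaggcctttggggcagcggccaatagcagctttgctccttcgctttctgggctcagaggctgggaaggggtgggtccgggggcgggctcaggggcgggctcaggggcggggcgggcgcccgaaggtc
The Ldha window held 5 ACGTG matches, 4 of them from its 2 CACGTG palindromes, and 2 GCGTG matches. Pgk1 held 2 ACGTG matches, Pdk1 2 GCGTG matches and Pfkl 1 GCGTG match. Ldha and Pdk1 each have a further window that is not shown. That of Ldha held 2 GCGTG matches and no ACGTG, and that of Pdk1 held neither motif. RefSeq windows were matched for 9 of the 10 genes, 14 windows in all, and 11 windows, covering all 9 genes, held at least 1 of the motifs. Aldoa windows 2 and 3 overlap and hold the same ACGTG match, so the window count takes it in more than once. Among all 32851 promoter windows, 19.6% held ACGTG, 32.4% held GCGTG and 43.8% held either. These shares are per window, so they are no measure for the count by gene. They were not matched for GC content, and enrichment was not tested. A match is a description of these letters and not of binding.

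Levels per length spanned more than an order of magnitude among the genes. Aldoa and Pgk1, which encode the aldolase and phosphoglycerate kinase of the main glycolytic trunk, had the highest group means in every group, Aldoa at 181 to 415 FPKM and Pgk1 at 133 to 235. Hk2, a hexokinase that traps glucose in the cell by phosphorylation, had the lowest mean in every group but MIR, at 3.12 to 6.36 FPKM. In MIR its mean was 10.8 ± 4.08 FPKM (SD, n = 3) and Pfkp was the lowest, at 9.63 ± 2.68 (SD, n = 3). Group means of Slc2a1, Slc2a3, Hk1, Pfkl, Pfkp, Aldoa and Pgk1 were highest in E115-noIR. Ldha was highest in FIR, Hk2 in MIR and Pdk1 in MC. The E11.5 and E13.5 tables were made separately, so levels across days stand side by side without a test.

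**Figure D1:**
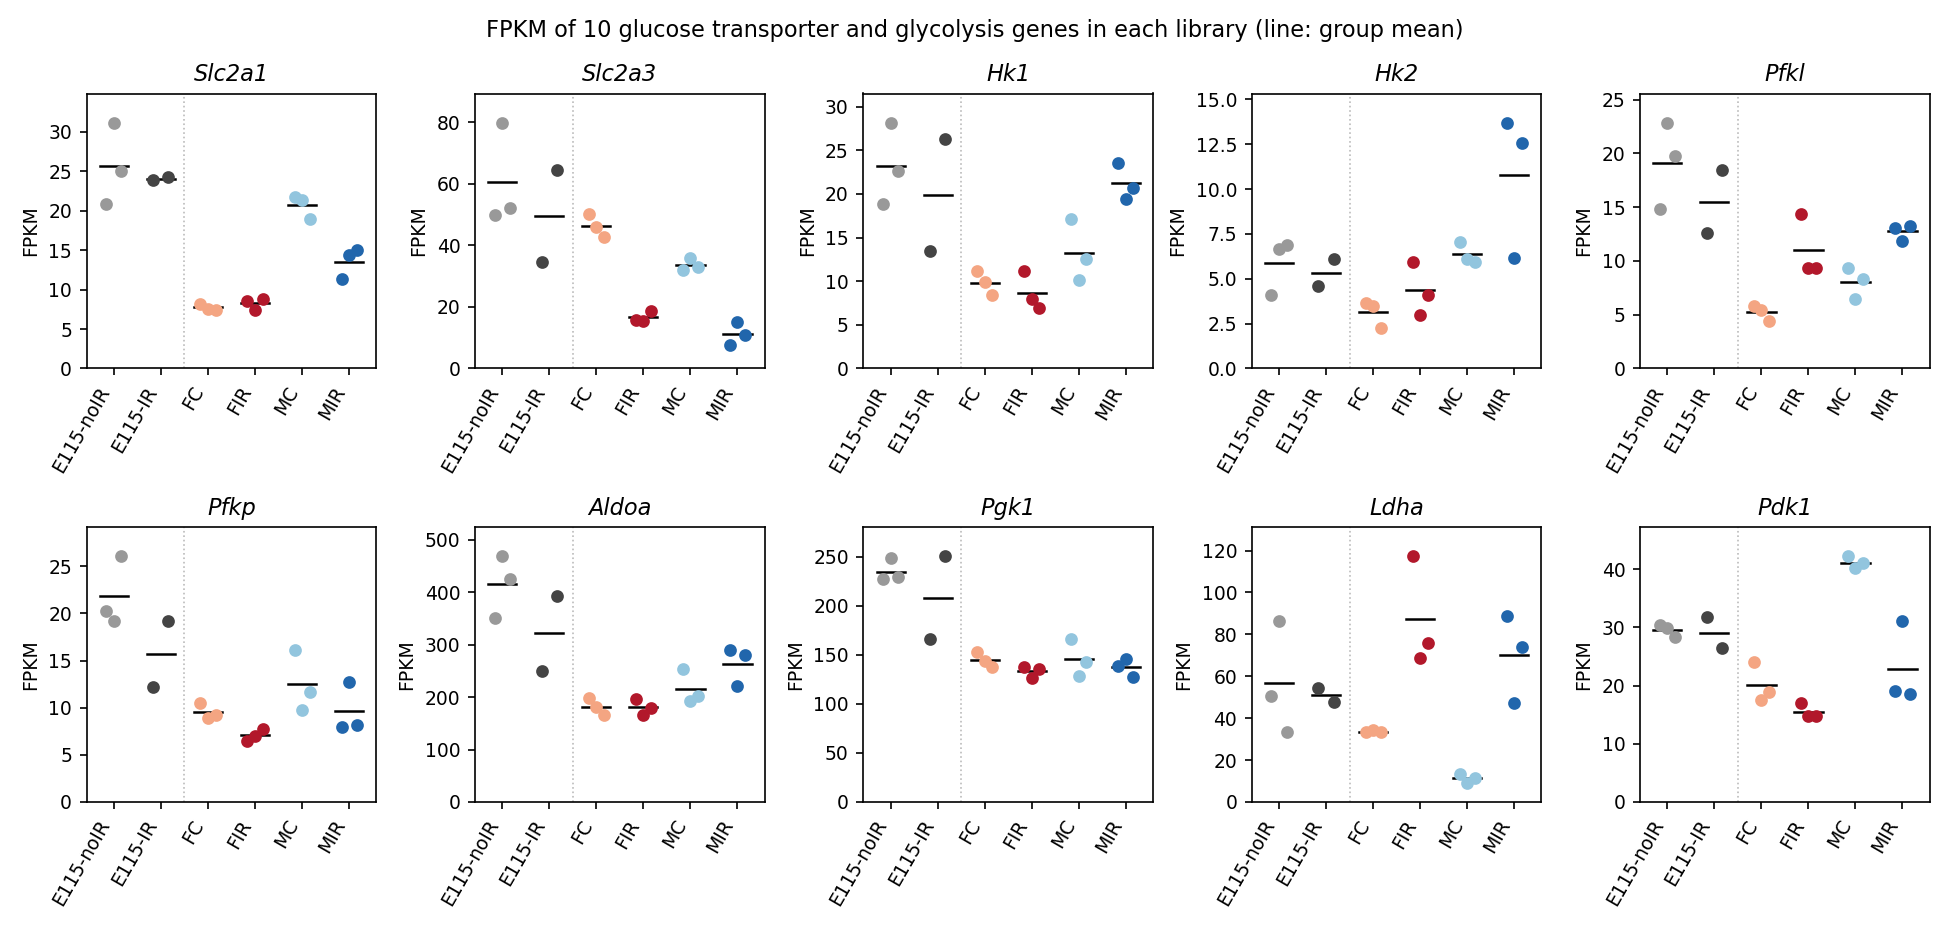
FPKM (vertical axes, linear, from 0) of the 10 genes in each of the 17 libraries, 1 point a library and a line at each group mean; the dotted line separates the E11.5 and E13.5 tables. Slc2a3 was lower in all FIR than in all FC libraries and in all MIR than in all MC libraries, and Ldha was higher in both.

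At E11.5, none of the 10 genes passed the test between irradiated and non-irradiated libraries. Of all 11315 genes tested, 2 were called in either direction, 0.0177%, and 358 had an unadjusted p under 0.05; of the 10 genes, 0 did. All 10 differences were below 0, with a median of -0.23 beside -0.02 over all genes tested, and the smallest adjusted p of the 10 was 0.974 (limma, Benjamini-Hochberg).

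Slc2a3, the high-affinity transporter GLUT3, was at 34.5 and 64.7 FPKM in the E115-IR libraries and at 50.002, 79.8 and 52.1 in the E115-noIR libraries. The groups overlapped, since E115-IR replicate 2 lay above 2 of the 3 non-irradiated libraries. Pfkp, the platelet-type phosphofructokinase gene, had the largest difference of the 10, with 12.2 and 19.2 FPKM after irradiation against 20.3, 19.2 and 26.05 without. Its log2 difference was -0.47 (95% interval -1.01 to 0.06), with an adjusted p of 0.974. Ldha, which encodes the muscle-type subunit of lactate dehydrogenase, was at 54.3 and 47.8 FPKM with irradiation and at 50.7, 86.5 and 33.2 without, so both irradiated values lay inside the non-irradiated range. Pdk1, a kinase that shuts pyruvate dehydrogenase, was at 31.8 and 26.4 FPKM against 30.5, 29.9 and 28.3, with an interval of -0.40 to 0.34 for the log2 difference.

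E115-IR replicate 1 was the lower irradiated library for Slc2a1, Slc2a3, Hk1, Hk2, Pfkl, Pfkp, Aldoa and Pgk1, and its Sertoli markers summed to 21.0 FPKM against at most 0.733 in the other 4 libraries. Without it, the log2 differences were 0.12 for Slc2a3, 0.19 for Hk1, 0.08 for Hk2 and 0.09 for Pgk1. The part of the marker level in these values was not tested.

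In E13.5 females, 2 of the 10 genes rose with irradiation and 1 fell, where the background over 12832 genes tested was 21.8% higher and 22.9% lower. Ldha and Pfkl rose and Slc2a3 fell. These counts are near the background for 10 genes, and the median difference was -0.06 beside -0.03 over all genes. In males, 3 of the 10 were higher in MIR than in MC (Ldha, Hk1 and Pfkl) and 3 lower (Slc2a3, Slc2a1 and Pdk1), against a background of 28.7% higher and 31.1% lower, with a median of 0.10 beside -0.04. Ldha, Pfkl and Slc2a3 were called in the same direction in both comparisons when the male one is MIR minus MC; by the male titles the direction would be opposite in the sexes for all 3.

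**Figure D2:**
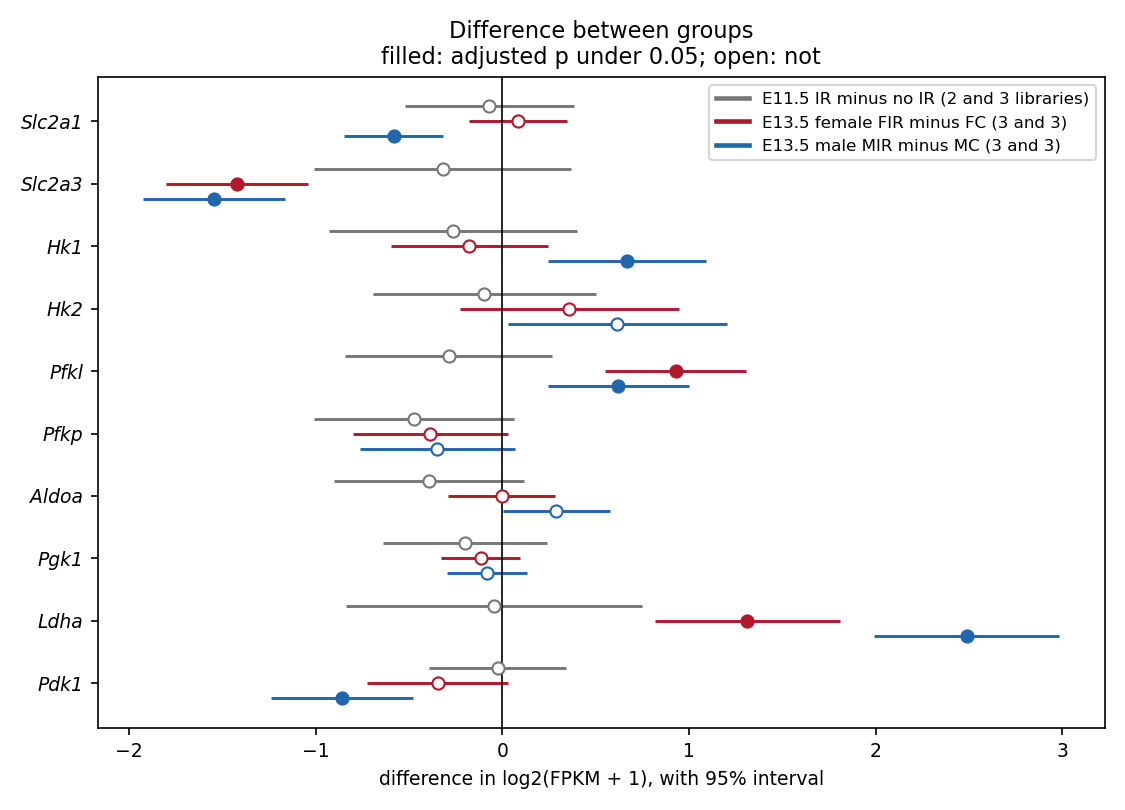
Difference in log2(FPKM + 1) between groups for the 10 genes (horizontal axis), with 95% intervals; colours mark the E11.5, female and male comparisons, and filled points have an adjusted p under 0.05. Ldha lay at 1.31 in females and 2.49 in males, and Slc2a3 at -1.42 and -1.54, while all E11.5 points were open.

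Slc2a3 was lower in FIR and in MIR, and Slc2a1 was lower in MIR. Slc2a3 (chr6:122727809-122801640, minus strand) was at 50.1, 46.0 and 42.9 FPKM in FC and at 15.9, 15.4 and 18.7 in FIR. It was at 32.01, 35.8 and 33.1 FPKM in MC and at 7.70, 15.0 and 11.01 in MIR. In each sex the groups did not overlap, and the lowest level of all 12 libraries was in MIR replicate 1. The female change was -1.42 (SE 0.175, adjusted p 9.8e-05 by limma), 2.68-fold lower, and the male one -1.54 (SE 0.175, adjusted p 2.93e-05), 2.92-fold lower on the log2(FPKM + 1) scale.

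Slc2a1 (chr4:119108711-119137983, plus strand) encodes GLUT1, the transporter of basal glucose uptake in many cell types. Its FPKM was 8.21, 7.53 and 7.45 in FC and 8.52, 7.42 and 8.86 in FIR. These sets overlapped, and the female difference was 0.08 (95% interval -0.18 to 0.35). In males it was at 21.8, 21.4 and 19.0 FPKM in MC and at 11.4, 14.3 and 15.0 in MIR, where every MIR library lay below every MC library. The male change was -0.58 (SE 0.121, adjusted p 0.00146 by limma), 1.498-fold lower. The female and male changes of Slc2a1 differed by 0.67 (SE 0.172, adjusted p 0.0346), female minus male, in a test that called 2.81% of genes higher and 4.96% lower. This call ended in 8 of the 12 fits without 1 library, with adjusted p-values up to 0.0902, and under a replicate block, with 0.0539. With the male direction turned to MC minus MIR, as the titles read, the difference was -0.50 (adjusted p 0.0212).

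As a share of all facilitative transporter FPKM, Slc2a3 made up 76.9 ± 1.47% in FC and 48.0 ± 1.58% in FIR, and 57.8 ± 1.84% in MC and 33.2 ± 6.90% in MIR (SD, n = 3 each). The share of Slc2a1 was 12.8 ± 0.208% in FC and 23.8 ± 0.912% in FIR, and 35.6 ± 2.04% in MC and 40.7 ± 1.90% in MIR, so that on average Slc2a1 led in MIR, although in MIR replicate 2 Slc2a3 was still the higher by FPKM. Each of these differences had an exact two-sided permutation p of 0.1, the smallest that 3 against 3 libraries can give. With family members under a mean of 1 FPKM left out, the Slc2a1 difference for MIR minus MC was 11.3 percentage points in place of 5.14. Among the other transporters, Slc2a8, an intracellular one, rose in females from 3.06 ± 0.414 to 5.43 ± 0.838 FPKM (SD, n = 3 each), a log2 difference of 0.66 with an adjusted p of 0.00256 by limma. Slc2a8 was also higher in MIR, at 3.89 ± 0.258 FPKM against 2.73 ± 0.169 in MC (SD, n = 3 each; log2 difference 0.39, adjusted p 0.0271). Slc2a9, a urate transporter, was at 0.756 ± 0.412 FPKM in FIR and 1.117 ± 0.267 in MIR (SD, n = 3 each) and at no more than 0.0703 in FC or MC; it passed the filter on low values only through FIR and MIR libraries, so these levels are a description.

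The hexokinase genes Hk1 and Hk2 did not pass the female test. Hk1 (chr10:62268855-62379908, minus strand), the hexokinase of most tissues, was at 11.2, 9.94 and 8.36 FPKM in FC and at 11.2, 7.96 and 6.89 in FIR. These overlapped, with a difference of -0.18 (95% interval -0.60 to 0.25). In males, Hk1 was at 17.1, 10.1 and 12.6 FPKM in MC and at 23.5, 19.5 and 20.7 in MIR. All MIR values were above all MC values, with a difference of 0.67 (SE 0.195, adjusted p 0.0107 by limma), 1.59-fold. Without MC replicate 2, the lowest of its group, the adjusted p was 0.0526.

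Hk2 (chr6:82725025-82774454, minus strand) was at 3.62, 3.50 and 2.25 FPKM in FC and at 5.96, 2.999 and 4.11 in FIR. It was at 7.08, 6.08 and 5.94 FPKM in MC and at 13.7, 6.15 and 12.6 in MIR. The female sets overlapped; in MIR, replicate 2 lay among the MC values and the other two libraries well above them. The log2 difference was 0.36 (95% interval -0.23 to 0.94) in females and 0.62 (0.03 to 1.202) in males, with an adjusted p of 0.0660 by limma for the latter. Without MIR replicate 2 the male difference was 0.94, with an adjusted p of 0.00256. In the hexokinase family, Hk1 held 74.96 ± 2.47% of FPKM in FC and 64.6 ± 4.67% in FIR, and 66.5 ± 3.81% in MC and 66.8 ± 7.63% in MIR (SD, n = 3 each).

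Phosphofructokinase commits sugar to glycolysis, and its genes differed. Pfkl (chr10:77986947-78010083, minus strand), the liver-type subunit, was at 5.81, 5.44 and 4.42 FPKM in FC and at 14.3, 9.33 and 9.33 in FIR. The groups were apart, and FIR replicate 1 was the highest of the 12 libraries. MC libraries were at 9.32, 6.43 and 8.27 FPKM and MIR libraries at 13.1, 11.9 and 13.2, again apart. Pfkl rose by 0.93 in females (SE 0.174, adjusted p 0.0014 by limma), 1.90-fold, and was higher in MIR by 0.62 (SE 0.174, adjusted p 0.00857), 1.54-fold.

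Pfkp (chr13:6579768-6648777, minus strand) was at 10.5, 8.90 and 9.26 FPKM in FC and at 6.49, 6.98 and 7.75 in FIR. All FIR values were lower, yet the difference of -0.39 (95% interval -0.80 to 0.03) did not pass, with an adjusted p of 0.116 by limma. In MC it was at 16.2, 9.74 and 11.7 FPKM and in MIR at 7.95, 12.7 and 8.22, which overlapped, with a difference of -0.35. Without MIR replicate 2 it was -0.55, with an adjusted p of 0.0147. Within the family of Pfkl, Pfkp and the muscle-type Pfkm, the Pfkl share was 15.8 ± 1.77% in FC and 29.0 ± 5.04% in FIR, and 26.6 ± 1.34% in MC and 36.8 ± 3.57% in MIR. The Pfkp share was 28.9 ± 2.61% in FC and 19.0 ± 2.84% in FIR, and 41.2 ± 2.87% in MC and 27.6 ± 6.62% in MIR (SD, n = 3 each). All 4 differences had an exact permutation p of 0.1, the smallest possible.

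Aldoa (chr7:126795234-126800751, minus strand), which splits fructose-1,6-bisphosphate, was at 198, 181 and 165 FPKM in FC and at 197, 167 and 179 in FIR. The female difference was -0.01 (95% interval -0.29 to 0.28). MC libraries were at 254, 192 and 202 FPKM and MIR libraries at 289, 222 and 281, with MC replicate 1 inside the MIR range. The male difference of 0.29 (95% interval 0.0011 to 0.57) had an adjusted p of 0.0769 by limma; it was 0.41 and called without MC replicate 1 or without MIR replicate 2.

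Pgk1 (chrX:106187100-106203699, plus strand) makes the first ATP of the pathway. It had the narrowest range of the 10 genes across the 12 E13.5 libraries, 0.38 on the log2 scale. FPKM was 153, 143 and 138 in FC, 138, 127 and 135 in FIR, 166, 128 and 143 in MC and 138, 145 and 128 in MIR. FIR lay just below FC, at no more than 137.6 against 137.8 FPKM or more, and MIR overlapped MC. The difference was -0.12 (95% interval -0.33 to 0.10) in females and -0.08 (-0.29 to 0.13) in males, and neither was called. Aldoa, Pgk1, Ldha and Tpi1 have near-identical processed pseudogenes in the mouse, and how shared reads were assigned is not given, so their levels are uncertain to that extent.

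Ldha (chr7:46841475-46855627, plus strand) had the widest range of the 10 genes at E13.5, 3.52 on the log2 scale. It was at 33.2, 34.3 and 33.3 FPKM in FC and at 117, 68.8 and 75.9 in FIR. In males it was at 13.3, 9.28 and 11.46 FPKM in MC and at 88.6, 47.1 and 74.0 in MIR. Both contrasts separated fully: the lowest irradiated or MIR library lay above every FC and MC library. Ldha rose by 1.31 in females (SE 0.228, adjusted p 0.000865 by limma), 2.48-fold, and was higher in MIR by 2.49 (SE 0.228, adjusted p 8.07e-06), 5.61-fold.

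With the male change taken as MIR minus MC, the difference of the Ldha changes, female minus male, was -1.17 (SE 0.322, adjusted p 0.0453 by limma). This call was lost in 10 of the 12 fits that left out 1 library, with adjusted p-values from 0.00298 to 0.114. With the male direction turned to that of the titles, the difference was 3.80 (adjusted p 1.995e-06 by limma). Which sex had the larger or the opposite change therefore depends on the male labels. The p53 targets Ccng1, Cdkn1a, Mdm2 and Phlda3 were higher in MIR than in MC, as in FIR than in FC. That is the direction of the codes. For Slc2a3 the difference of the changes was 0.12 (95% interval -0.42 to 0.66), for Hk1 -0.84 (adjusted p 0.0845) and for Pdk1 0.51 (adjusted p 0.232).

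Ldhb, the heart-type subunit, was the main lactate dehydrogenase gene by FPKM. Ldha held 14.8 ± 0.331% of the family in FC and 20.2 ± 1.39% in FIR, and 3.17 ± 0.506% in MC and 9.17 ± 0.861% in MIR (SD, n = 3 each; exact permutation p 0.1 in each sex, the smallest possible). Ldhb itself rose from 189 ± 7.70 FPKM in FC to 338 ± 74.2 in FIR, and was at 343 ± 16.5 in MC and higher, at 684 ± 176, in MIR (SD, n = 3 each; adjusted p 0.00289 and 0.000583 by limma).

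Pdk1 (chr2:71873224-71903858, plus strand) phosphorylates pyruvate dehydrogenase and so limits the entry of pyruvate into the citric acid cycle. FPKM was 24.04, 17.5 and 18.9 in FC and 17.1, 14.7 and 14.8 in FIR. All FIR values were below all FC values, but the difference of -0.35 (95% interval -0.73 to 0.03) had an adjusted p of 0.123 by limma. In males it was at 42.2, 40.2 and 41.1 FPKM in MC and at 19.0, 31.1 and 18.5 in MIR. MIR lay wholly below MC, with replicate 2 nearest, and Pdk1 was lower in MIR by 0.86 (SE 0.174, adjusted p 0.00124 by limma), 1.81-fold. Its share of pyruvate dehydrogenase kinase FPKM was 13.3 ± 2.38% in FC and 13.1 ± 3.15% in FIR, and 37.5 ± 0.428% in MC and 27.8 ± 5.48% in MIR (SD, n = 3 each). Pdk3 led this family in all 4 E13.5 groups.

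**Figure D3:**
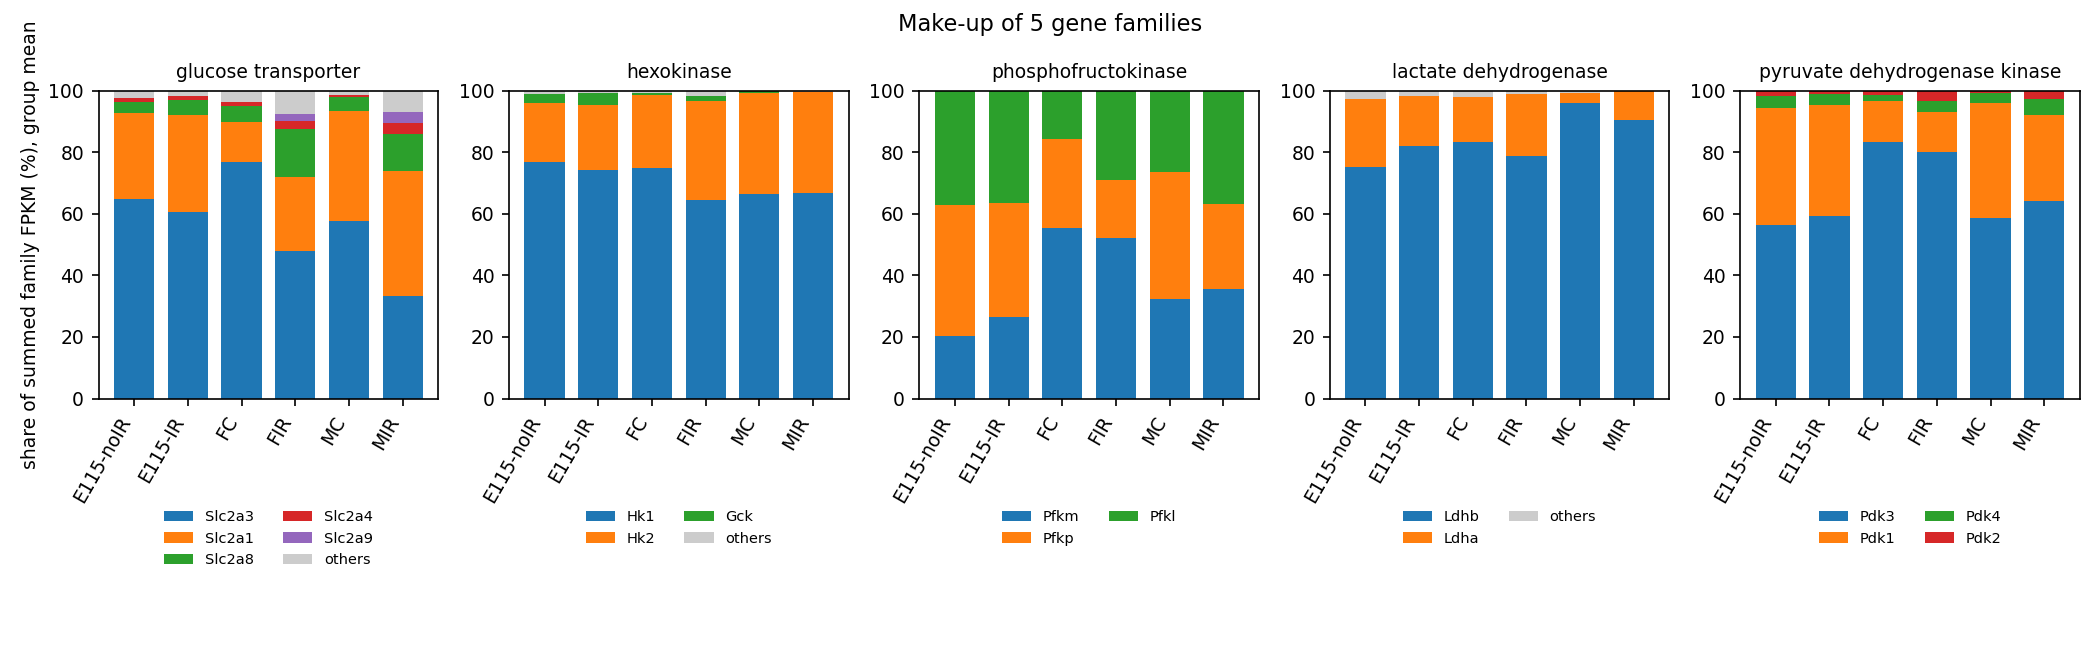
Share of summed FPKM (vertical axis, %, group means stacked to 100) held by each gene of 5 families in the 6 groups; members that stayed under 3% in all groups are pooled as others. The Slc2a3 share was 76.9% in FC and 48.0% in FIR, and the Ldha share 3.17% in MC and 9.17% in MIR.

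FC was compared with MC, the male set whose code matches it. In that comparison 1 of the 10 genes was higher in FC, Ldha, and 4 were lower, Slc2a1, Pdk1, Hk2 and Pfkl, against a background of 16.1% higher and 18.8% lower; the median was -0.36 beside -0.02. Slc2a1 was 2.48-fold lower in FC (log2 difference -1.31, SE 0.121, adjusted p 1.14e-05 by limma) and Pdk1 2.01-fold lower (-1.01, SE 0.174, adjusted p 0.000885). Ldha was 2.83-fold higher in FC (1.498, SE 0.228, adjusted p 0.000363). With MIR in the place of MC, as the titles would have it, Ldha turned to -0.99 (adjusted p 0.00255), Pdk1 was at -0.15 (adjusted p 0.482) and Slc2a3 was higher in females by 1.99 (adjusted p 2.68e-06), whereas Slc2a1 stayed lower at -0.73 (adjusted p 0.000274). Leaving out 1 library ended the Hk2 call in 5 of 6 fits and the Pfkl call in 4 of 6, with adjusted p-values up to 0.117 and 0.133.

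The counts that follow are set against the shares over all genes, 21.8% higher and 22.9% lower in females and 28.7% and 31.1% in males, and they include genes that passed the filter on low values only through the groups where they were high. Of 19 other glycolytic enzyme genes, 13 were tested at E13.5; 4 rose and 1 fell in females, and 4 were higher and 4 lower in MIR, near those shares. Tpi1, triose phosphate isomerase, rose from 26.2 ± 0.970 to 66.9 ± 23.1 FPKM in females (log2 difference 1.27, adjusted p 0.000644 by limma). Pkm, pyruvate kinase, fell from 335 ± 21.8 to 251 ± 12.2 FPKM in females (SD, n = 3 each, adjusted p 0.0115 by limma). It was lower in MIR, at 352 ± 57.4 FPKM against 599 ± 46.6 in MC (SD, n = 3 each, adjusted p 0.000151). Eno3, an enolase, rose in females by 0.58. Pgam2, a phosphoglycerate mutase, was higher in MIR by 1.85 and the difference of Gpi1, glucose phosphate isomerase, was -0.50. The median over the list was 0.08 in females and -0.06 in males.

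Lactate and sugar carriers were 13 genes, of which 7 were tested; 2 rose and 1 fell in females, and 6 were higher and 1 lower in MIR, with 28.7% and 31.1% over all genes in MIR. Slc16a1, the lactate carrier MCT1, fell from 36.2 ± 0.722 to 20.6 ± 4.03 FPKM in females (SD, n = 3 each, adjusted p 0.00197 by limma). It was lower in MIR, at 11.95 ± 2.58 FPKM against 24.4 ± 1.51 in MC (SD, n = 3 each, adjusted p 0.000276). Slc16a3, the lactate exporter MCT4, was higher in MIR, at 10.9 ± 6.46 FPKM against 1.08 ± 0.389 in MC (SD, n = 3 each; log2 difference 2.33, adjusted p 0.000307). Its female difference of 0.70 had an adjusted p of 0.152. All lists named here had 0 calls at E11.5.

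Regulators at the ends of the pathway gave small counts. Of 5 genes that set fructose-2,6-bisphosphate, the activator of phosphofructokinase, 1 rose and 2 fell in females and 1 was higher and 3 lower in MIR. Pfkfb3, which makes that activator, fell by 0.54 in females and was lower in MIR by 0.65. The gene 9630033F20Rik, also known as Tigar, which removes it, fell by 0.51 in females and was lower in MIR by 0.63. Pfkfb4 rose in females by 0.59. Of 12 genes of pyruvate entry into mitochondria, 1 rose and 4 fell in females and 3 were higher and 3 lower in MIR. Pdha1, a pyruvate dehydrogenase subunit, fell by 0.60 in females and was lower in MIR by 0.95. Pdk3, Pdhx and Dlat also fell in females, by 0.39, 0.38 and 0.46, and Pdk4 rose by 0.46.

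In side branches, 2 of 8 pentose phosphate genes rose and 1 fell in females, and 3 were higher and 4 lower in MIR. Rpe, ribulose phosphate epimerase, rose by 0.56 in females and was higher in MIR by 0.98. Pgls also rose in females, by 0.41, and Rpia fell by 0.55. G6pdx, which opens the branch, was higher in MIR by 1.13 (adjusted p 7.25e-05 by limma). Of 7 gluconeogenesis genes, 4 were tested, with 2 higher and 0 lower in females and 3 higher and 0 lower in MIR. Pck2 rose in females by 0.67. Fbp1, fructose bisphosphatase, was at 0.420 ± 0.0993 FPKM in FC and 1.61 ± 0.193 in FIR, and at 0.036 ± 0.0623 in MC and 0.539 ± 0.141 in MIR (SD, n = 3 each); it passed the filter only through FIR, so these levels are a description.

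**Figure D4:**
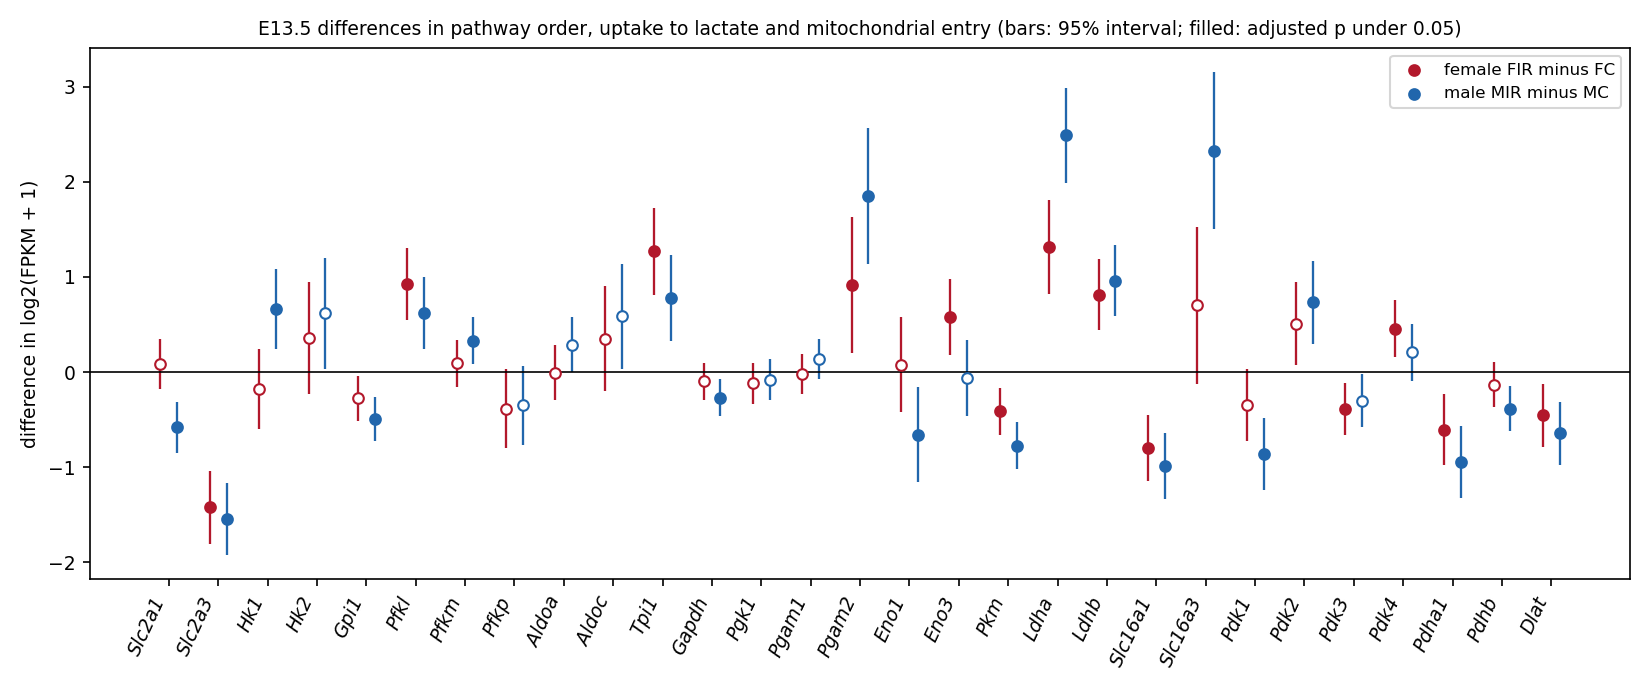
Difference in log2(FPKM + 1) (vertical axis) for the tested genes in pathway order from uptake to mitochondrial entry, FIR minus FC and MIR minus MC, with 95% intervals; filled points have an adjusted p under 0.05. Slc2a3 and Slc16a1 lay below 0 and Pfkl, Tpi1, Ldha and Ldhb above 0 in both sexes, with Pgk1 near 0.

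Of 9 HIF factors and regulators, 2 rose and 1 fell in females and 3 were higher and 2 lower in MIR, near the shares of 21.8% and 22.9% and of 28.7% and 31.1% over all genes. Vhl, which marks HIF for degradation, rose by 0.52 in females and was higher in MIR by 1.34. Egln3 fell in females by 0.70. Hif1a was higher in MIR by 0.73 (adjusted p 0.00337 by limma). Of 16 other hypoxia-response genes, 15 were tested, with 5 higher and 2 lower in females and 3 higher and 3 lower in MIR. Ddit4, which is also a p53 target, rose by 1.14 in females and was higher in MIR by 0.89. Bnip3, a mitophagy gene, fell by 0.62 in females and was lower in MIR by 0.95. Adm, which encodes the vasodilator adrenomedullin, was at 0.448 ± 0.0551 FPKM in FC, 5.85 ± 1.87 in FIR, 0.209 ± 0.129 in MC and 0.447 ± 0.295 in MIR (SD, n = 3 each); it passed the filter only through FIR, so these levels are a description. Vegfa, the vascular growth factor, rose by 1.38 in females (adjusted p 0.00407) and was higher in MIR by 1.49 (adjusted p 0.0015).

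In each sex, the group with the higher somatic marker level had the higher Ldha and the lower Slc2a3. The mean log2 level of 24 gonadal supporting cell, pregranulosa, mesenchyme and macrophage markers was 1.01 to 1.21 in FC and 3.17 to 3.69 in FIR, and 0.65 to 0.93 in MC and 2.11 to 2.25 in MIR, with no overlap in either sex. With that level as a covariate, none of the 10 genes was called in females or males, and 4 and 92 genes were called in all; Ldha was then at 0.20 (SE 1.31, adjusted p 0.972) and 1.82 (SE 0.811, adjusted p 0.308), and Slc2a3 at -1.21 (SE 1.04, adjusted p 0.718) and -1.41 (SE 0.639, adjusted p 0.315). The 24 markers leave out the Sertoli ones, which summed to 50.3 to 91.0 FPKM in MC and 965 to 3271 in MIR. The covariate therefore does not stand for Sertoli RNA in the male fit. Since the marker level does not overlap between the groups of either sex, marker level and group cannot be told apart here. Within FIR, replicate 1 had the largest pregranulosa sum, 226 FPKM beside 92.3 and 92.6. Its germ cell sum was the smallest, 1575 FPKM beside 2399 and 2344, and its Ldha and Pfkl were the highest. Whether these go together was not tested. The marker lists moved as well. Of the 5 supporting cell markers 5 rose in females and 4 were higher in MIR. Of 10 germ cell markers 6 fell in females and 9 were lower in MIR. The shares over all genes were 21.8% higher and 22.9% lower in females, and 28.7% and 31.1% in MIR.

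Within MIR, replicate 2 had the smallest Sertoli sum, 965 FPKM beside 3271 and 3032, the lowest Ldha and the highest Slc2a3, whereas its 24-marker level, 2.25, was the highest of the 3. The 2 libraries left out next were chosen after the data were seen. With replicate 2 as the only MIR library, Ldha was higher by 1.97, Slc2a3 was at -1.11 and Slc2a1 at -0.50. Hk1 was then at 0.55, Pfkl at 0.53 and Pdk1 at -0.39, beside 0.67, 0.62 and -0.86 with all 3 MIR libraries. With a single MIR library only sizes are given, so these values do not show that any call held. Replicate 2 still held Sertoli markers far above the 50.3 to 91.0 FPKM of MC, so this fit does not remove somatic RNA.

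**Figure D5:**
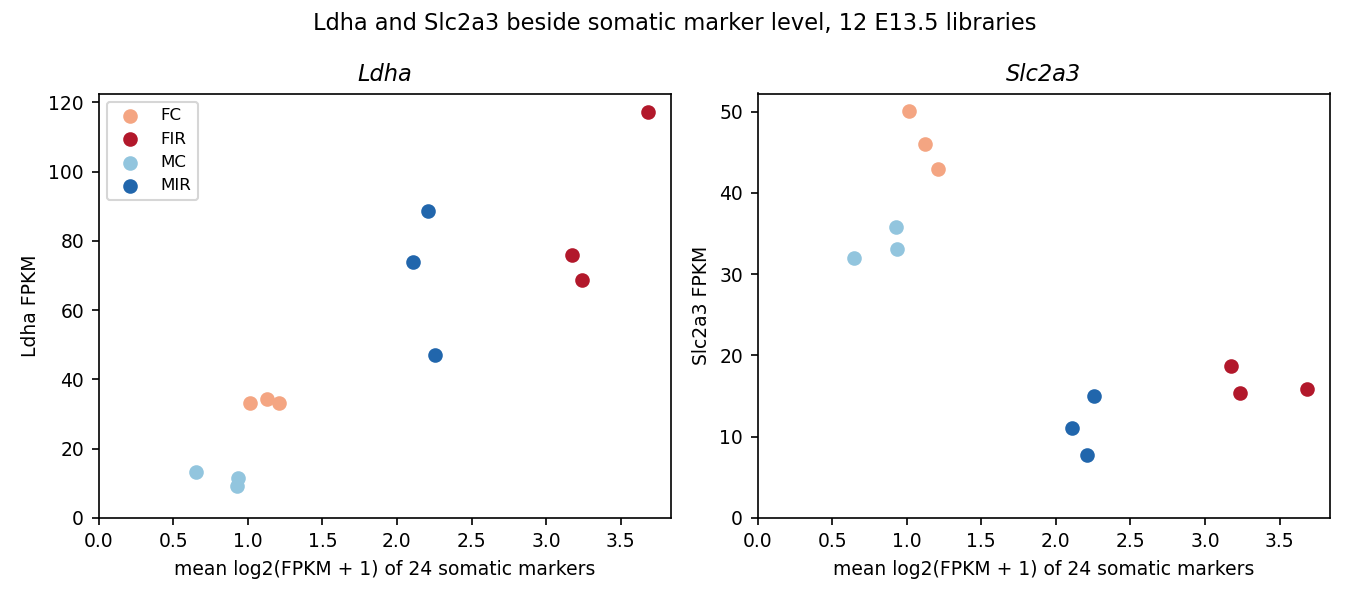
FPKM of Ldha (left) and Slc2a3 (right) against the mean log2(FPKM + 1) of 24 somatic markers, 1 point for each of the 12 E13.5 libraries, coloured by group. FIR and MIR libraries lie at 2.11 to 3.69 on the marker axis with Ldha at 47.1 FPKM or more, and FC and MC at 0.65 to 1.21 with Ldha at 34.3 or less.

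Across the 12 E13.5 libraries, the genes whose log2 level followed Ldha most closely by Pearson correlation were Eci2 (r = 0.99), Pdzd11 (0.98), Tmem132a (0.98), Oat (0.98) and Chpf2 (0.98), each over 12 libraries that fall into 4 groups. Eci2, an enzyme of fatty acid oxidation, was at 44.5 FPKM in FC, 65.7 in FIR, 24.4 in MC and 54.1 in MIR, the order of group means seen for Ldha. Oat, ornithine aminotransferase, was at 41.1, 54.7, 28.8 and 49.2 FPKM in the same groups.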

How the data were processed

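RNA-seq libraries were made after ribosomal RNA depletion with RiboZero and the NEBNext Ultra II kit, per the labels' protocols. The authors deposited FPKM values per gene in 1 table for each embryonic day. The submitters' processing notes name mm10 and DESeq2, while the aligner, the counter and the gene annotation were not given in the sources used here. No 2 libraries were copies: at least 16012 genes differed between any 2. At E13.5, 27 rows with a number in place of a gene symbol were left out, and 0 columns were left unused.

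Tests covered genes that reached 1 FPKM in 2 or more E11.5 libraries, or in 3 or more E13.5 libraries, on log2(FPKM + 1), with a pseudocount of 1, by limma 3.58.1 (limma-trend, R 4.3.3), with Benjamini-Hochberg adjustment over all genes tested and a threshold of 0.05. All 10 genes passed the filter at both days. The 4 E13.5 groups shared 1 fit. Shares of a gene family were compared by exact two-sided permutation tests. Since the files hold FPKM and no counts, no count model was used. Depth was estimated from the spacing of values up to 0.5 FPKM in transcripts of 1500 bases or more. Coordinates are those of GENCODE M21 on GRCm38, and promoter windows those of RefSeq. Tables and figures were made with Python 3.11.15, numpy 2.4.6, pandas 2.3.3 and matplotlib 3.10.9, and the fit was tested on simulated data.

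All 10 genes were tested in every comparison. From each other list, genes were named mostly among up to 4 called ones a comparison with the smallest adjusted p. Not every such gene is given. Genes like Ldha were the 5 tested genes with the highest Pearson correlation over the 12 E13.5 libraries, predicted and small RNA genes left out. The genes and lists were chosen with earlier results of these data known. Alternatives were other filters, pseudocounts and scalings, library weights, separate fits, a replicate block, a somatic marker covariate, the other male set, the male direction turned, and leaving out each library.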

Additional observations from a re-analysis of the deposited data

Results flagged for a closer look

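The change of Slc2a1 differed between the sexes by 0.67 on the log2 scale (female FIR minus FC against male MIR minus MC; SE 0.172, adjusted p 0.0346 by limma). It was 0.08 in females and -0.58 in males, and all 3 MIR libraries lay below all 3 MC libraries. The call ended in 8 of the 12 fits without 1 library, under the replicate block (adjusted p 0.0539) and with quantile scaling (0.104). With the male direction turned, as the titles read, the difference was -0.50.

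The change of Ldha differed between the sexes by -1.17 (SE 0.322, adjusted p 0.0453 by limma), with 1.31 in females and 2.49 in males. The call ended in 10 of the 12 fits without 1 library, with no filter (adjusted p 0.0788), with a filter of 5 FPKM (0.0528) and with quantile scaling (0.107). With the male direction turned it was 3.80. FC was at 33.6 ± 0.644 FPKM and MC at 11.4 ± 2.03 (SD, n = 3 each). Sertoli markers were higher in MIR and pregranulosa markers in FIR. With the mean of 24 somatic markers, pregranulosa but not Sertoli markers among them, as a covariate, the differences were 0.78 (adjusted p 0.211) for Slc2a1 and -1.62 (adjusted p 0.188) for Ldha, neither of them called.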

How the results depend on the processing

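The calls of Ldha, Pfkl and Slc2a3 in females, and of Ldha, Slc2a3, Slc2a1, Pfkl and Pdk1 in males, held whichever single library was left out. Over all settings, 617 of the values for single genes kept direction and call, 46 reversed, 53 lost a call and 29 gained one. Values that moved follow by comparison, as difference in log2(FPKM + 1) or as counts, with the reported value in brackets where it is a count. The cause was not tested unless the setting itself removes samples or genes.

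At E11.5, the number of genes called [2] was 1 with no filter, 5 with a replicate block and 2 to 17 without 1 library. The replicate block put Hk2 at 0.014, and quantile scaling put Ldha at 0.0054 and Pdk1 at 0.011. Without 1 library, Slc2a1 ranged from -0.21 to 0.072, Ldha from -0.37 to 0.31, Hk2 from -0.30 to 0.076, Slc2a3 from -0.76 to 0.12, Hk1 from -0.72 to 0.19, Pgk1 from -0.50 to 0.093 and Pdk1 from -0.15 to 0.10.

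For FIR minus FC, the count of genes lower [1] was 3 with library weights and 2 when only these groups were fitted. With the somatic covariate 0 were higher [2] and 0 lower, 4 genes were called in all [5747], and Hk2 was at -0.064, Pfkp at 0.93, Aldoa at 0.55 and Pgk1 at 0.21. Quantile scaling put Slc2a1 at -0.066, Aldoa at 0.18 and Pgk1 at 0.052. Aldoa ranged from -0.071 to 0.060 without 1 library.

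For MIR minus MC, the count higher [3] was 5 with library weights, 5 with the replicate block and 2 to 5 without 1 library. With the somatic covariate 0 were higher and 0 lower [3], 92 genes were called [7671], and Pfkp was at 0.44 and Pgk1 at 0.12. With MIR replicates 1 and 3 left out, chosen after seeing the data, 1 was higher, 3266 genes were called, and Hk2 was at -0.040, Pfkp at 0.047 and Pgk1 at 0.0049. Quantile scaling put Pgk1 at 0.14, and it ranged from -0.17 to 0.016 without 1 library.

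For the female change minus the male change, 1 gene was higher and 1 lower. Counts higher and lower were 0 and 0 with quantile scaling or the somatic covariate, 2 and 4 with library weights, and 0 and 2 with the replicate block. With no filter or a filter of 5 FPKM, 0 were lower. Without 1 library, 0 to 2 were higher and 0 to 2 lower. Genes called [997] were 196 without MIR replicates 1 and 3, 555 with the filter of 5 FPKM, 5473 with library weights, 0 with the covariate and 462 to 2478 without 1 library. With the male direction turned to MC minus MIR, added after seeing the data, 3 were higher, 4 lower and 8691 genes called, and Slc2a1 was at -0.50, Slc2a3 at -2.97, Hk1 at 0.49, Ldha at 3.80 and Pdk1 at -1.21. Slc2a3 was at -0.31 without MIR replicates 1 and 3 and ranged from -0.10 to 0.33 without 1 library.

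For FC minus MC, the count higher [1] was 2 with library weights and when only these groups were fitted. The count lower [4] was 7 with library weights, 2 with no filter and 2 to 4 without 1 library. Genes called [4482] were 7522 with library weights and 7818 with MIR in the place of MC, which put Ldha at -0.99, Pfkp at 0.016 and Pgk1 at 0.077. Pgk1 was at 0.011 with library weights and with median scaling, 0.094 with quantile scaling and 0.037 with the covariate, and ranged from -0.090 to 0.093 without 1 library. Of the family shares, without 1 library, Hk1 for MIR minus MC ranged from -4.10 to 2.77 percentage points, Hk2 from -2.47 to 4.37, and Pdk1 for FIR minus FC from -2.002 to 1.14. With family members under a mean of 1 FPKM left out, the Slc2a1 difference was 13.7 points for FIR minus FC [11.01] and 11.3 for MIR minus MC [5.14], and that of Slc2a3 for FIR minus FC -26.2 [-28.9].

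Deviations of same-numbered E13.5 libraries correlated at -0.22 to 0.48 over 18 pairs, so the numbers were not taken to pair all groups. Between FIR and MIR the same-numbered pairs were at 0.48, 0.41 and 0.097, and the others at -0.43 to 0.23. The replicate block ended the Slc2a1 call of the sex difference (adjusted p 0.0539) and added one for Hk1 (0.0233); it also called Hk2 (0.0358) and Aldoa (0.0257) for MIR minus MC and Hk1 (0.0491) for FC minus MC. The E11.5 numbers gave 0.16 and 0.25 over 2 pairs. Groups of 2 or 3 libraries, depth known only by estimate and male labels in conflict limit all of these values.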
